A study of Mus musculus with 10 samples.

Results

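Respiratory complex I was described here through 45 genes of the 18216 in the deposited table. These were the protein-coding genes whose symbols begin with Ndufa, Ndufb, Ndufc, Ndufs or Ndufv and a digit, Ndufab1, and those that begin with mt-Nd. Of the 45, 38 lie in the nuclear genome and 7 in the mitochondrial genome, and the rule itself uses symbols and annotation rather than measured values. It also takes in Ndufa4, now counted as a subunit of complex IV, and its relative Ndufa4l2, so that 36 nuclear genes encode complex I proteins in the strict sense. The symbol rule left out assembly factors (Ndufaf genes), the processed pseudogene Ndufb4c and a gene at the Ndufb1 locus that the annotation does not class as protein-coding.

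The mice were C57BL/6N males of postnatal day 10, and RNA was taken from their prefrontal cortex. The HT group held 5 Arid1b+/– heterozygotes and the WT group 5 wild types, each mouse giving 1 library. The HT mice carry, in every cell of the body, 1 Arid1b allele with a protein-truncating insertion in exon 5 made with CRISPR/Cas9 nickase, so they model the loss of 1 copy from conception and not a loss in a chosen cell type. The labels name no treatment for either group. Values are normalised counts, meaning transcript estimates summed to genes and divided by a size factor per library.

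In these mice neither set of complex I genes differed between genotypes beyond the spread between mice. The 38 nuclear genes were nearly level between HT and WT, with a median log2 fold change (HT minus WT, on the log2(value + 1) scale) of 0.01. The 7 mitochondrial-genome genes had a median of 0.18, 6 of the 7 being higher in HT, but their values varied far more from mouse to mouse, and the median depended on single mice of both genotypes, being 0.076 without HT2, 0.073 without WT3 and 0.25 without HT3. Over all 16781 genes tested the median was -0.0035.

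Complex I, or NADH:ubiquinone oxidoreductase, takes electrons from NADH, passes them along iron-sulphur clusters to ubiquinone and uses the energy to pump protons across the inner mitochondrial membrane. It is L-shaped. A peripheral arm in the matrix holds the N module, which binds NADH, and the Q module, which reduces ubiquinone, whereas the membrane arm holds the proton-pumping subunits. The catalytic core is built from both genomes, with 7 subunits from nuclear genes and 7 from the mitochondrial genome, and is wrapped by nuclear accessory subunits. In brain, where ATP demand is high, defects of complex I subunits are a known cause of Leigh syndrome.

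The mitochondrial subunits mt-Nd3 and mt-Nd4l have near-identical copies in the nuclear genome, on chromosome 1 of GRCm38, and the sequences are shown because they decide how far the values of these genes can be read. A comparison of annotated transcripts in stretches of 31 bases found 98.1% of the stretches of mt-Nd3 and 98.9% of those of mt-Nd4l in another gene. The transcript of mt-Nd4l lies on the plus strand at chrM:9877-10173, and that of its copy Gm10222 on the minus strand at chr1:24612407-24612700. All 294 bases of the copy were aligned and 0 differed. In the lines below, capitals mark the bases that lie outside the aligned stretch. For mt-Nd3 (chrM:9459-9806, plus strand) only the last 60 bases are given, with the last 60 of its copy Gm28438 (chr1:24612775-24613119, minus strand), and the 342 aligned bases of that pair, of the 345 in the copy, also held 0 differences.
mt-Nd4l: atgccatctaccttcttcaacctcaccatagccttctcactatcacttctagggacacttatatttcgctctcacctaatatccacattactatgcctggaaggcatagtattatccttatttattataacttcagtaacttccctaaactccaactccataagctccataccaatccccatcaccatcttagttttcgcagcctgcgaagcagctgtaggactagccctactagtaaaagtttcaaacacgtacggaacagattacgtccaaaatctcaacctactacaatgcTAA
mt-Nd3: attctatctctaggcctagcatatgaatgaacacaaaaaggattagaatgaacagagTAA
Gm28438: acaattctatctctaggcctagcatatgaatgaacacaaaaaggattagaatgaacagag
In both pairs the mitochondrial transcript ends in a stop codon that the annotated copy lacks. The other mitochondrial subunits shared less: 62.8% of the stretches for mt-Nd4, 16.8% for mt-Nd5, 13.5% for mt-Nd2, 7.36% for mt-Nd6 and 0% for mt-Nd1. The copy of mt-Nd4, Gm28439, was not analysed here.

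The targeted gene followed the labels, with Arid1b at 1767 to 1987 normalised counts in HT and 2662 to 3018 in WT, so that the difference HT minus WT was -0.59 on the log2 scale (SE 0.048, adjusted p = 9.96e-05 by limma). Markers of cortical excitatory neurons, GABAergic neurons, astrocytes, microglia, oligodendrocytes and vessels were above 0 in every mouse. Deposited totals ran from 31106330 to 32106791 per library, and pairs of libraries correlated at 0.981 to 0.990 across genes. Summed markers of the striatum, which lies next to the frontal cortex, were 10408 to 10956 in 3 mice (HT5, WT3 and WT5) and 18431 to 28298 in the other 7. Without these 3 mice the median log2 fold change was 0.0076 for the nuclear and 0.14 for the mitochondrial subunits. At the adjusted threshold of 0.05, 3 of the 16781 genes (0.0179%) differed between genotypes and none of the 45 complex I genes did.

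Among the mitochondrial-genome subunits, mt-Nd1, which forms the ubiquinone tunnel together with the Q module, had the smallest p. The WT mice 1 to 5 stood at 161772, 178951, 171292, 199894 and 199606 normalised counts of mt-Nd1, a mean of 182303 ± 17050 (SD, n = 5). The HT mice 1 to 5 stood at 201646, 270398, 163926, 216475 and 222057, a mean of 214900 ± 38431 (SD, n = 5). Thus 4 HT mice lay above every WT mouse, whereas HT3 was second lowest of the 10. The log2 fold change was 0.22 (SE 0.12, limma unadjusted p = 0.083, adjusted p = 0.57).

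The 3 antiporter-like subunits of the membrane arm, mt-Nd2, mt-Nd4 and mt-Nd5, through which protons are pumped, had fewer HT mice above every WT mouse than mt-Nd1. For mt-Nd5, WT mice 1 to 5 had 143046, 153476, 155192, 169668 and 167207, and HT mice 1 to 5 had 162407, 222041, 143044, 183550 and 187898. The values of mt-Nd2 were 104987, 112305, 104663, 121156 and 119837 in WT and 119406, 152714, 98588, 131311 and 127470 in HT. Those of mt-Nd4 were 186414, 200004, 193914, 227035 and 226798 in WT and 203364, 279911, 175580, 234693 and 220766 in HT. In each of the 3, HT2 was the highest and HT3 the lowest of the 10 mice (for mt-Nd5 level with WT1), so that the HT group spanned the whole WT range. HT2 and HT4 lay above every WT mouse in all 3 genes and HT5 in mt-Nd2 and mt-Nd5, whereas HT1 lay below WT4 and WT5 in all 3. The log2 fold changes were 0.18 (SE 0.11, adjusted p = 0.60) for mt-Nd5, 0.15 (SE 0.10, adjusted p = 0.63) for mt-Nd2 and 0.095 (SE 0.12, adjusted p = 0.80) for mt-Nd4, all by limma. That of mt-Nd4 turned to -0.025 under quantile normalisation and to -0.021 without HT2 and HT5.

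**Figure D1:**
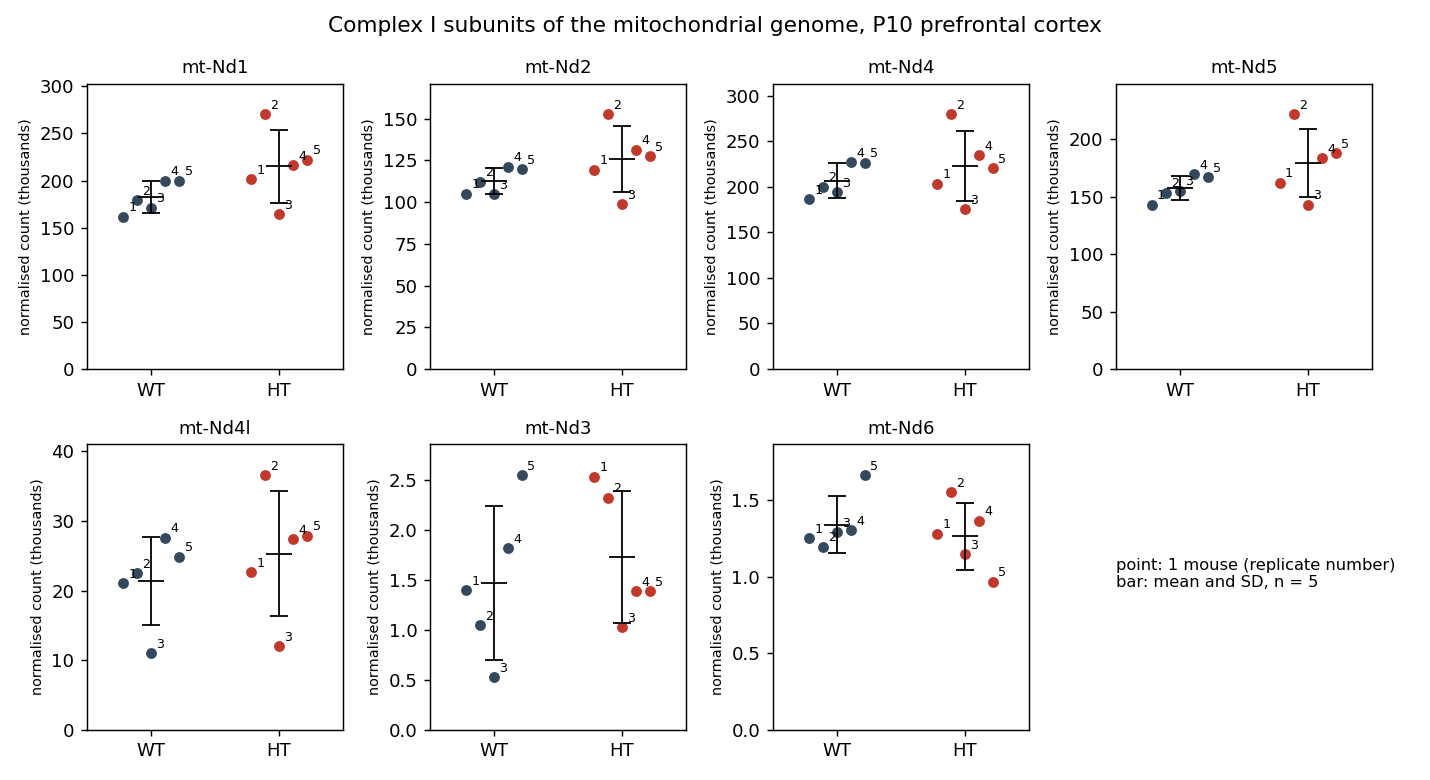
Normalised count divided by 1000 (y axis, from 0) of each mitochondrial-genome subunit in WT and HT mice, 1 point per mouse with its replicate number, bars showing the mean and SD (n = 5). HT2 is the highest point for mt-Nd1, mt-Nd2, mt-Nd4, mt-Nd5 and mt-Nd4l, and WT5 for mt-Nd3 and mt-Nd6.

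The 3 remaining mitochondrial subunits are small membrane proteins at or near the joint of both arms. WT mice 1 to 5 had 21020, 22458, 10975, 27598 and 24864 normalised counts of mt-Nd4l, and HT mice had 22602, 36627, 12022, 27349 and 27891. For mt-Nd3 the values were 1393, 1043, 525, 1814 and 2547 in WT and 2531, 2322, 1024, 1384 and 1385 in HT. Both genes spread widely within each genotype, and in both WT3 was the lowest of the 10 mice. The log2 fold changes, 0.22 for mt-Nd4l (SE 0.28, limma adjusted p = 0.80) and 0.34 for mt-Nd3 (SE 0.35, limma adjusted p = 0.76), were smaller than their standard errors. That of mt-Nd4l changed sign when WT3 was left out (-0.0051).

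mt-Nd6 is the only subunit gene on the light strand of the mitochondrial genome, the other 6 being read from the heavy strand, and its transcript is known to carry little or no poly(A) tail, whereas these libraries were made from poly-A RNA. It was also the only mitochondrial subunit with a negative fold change. WT mice 1 to 5 had 1253, 1196, 1290, 1304 and 1667 normalised counts, and HT mice had 1282, 1554, 1149, 1368 and 969. The groups overlapped and the log2 fold change was -0.094 (SE 0.12, limma unadjusted p = 0.43, adjusted p = 0.80). WT5 stood apart from the other WT mice, and without it the value was -0.014. Without HT5, WT3 and WT5, the mice of low striatal markers, it turned to 0.089. Set against the sum of all 7 genes, mt-Nd6 made up 1.74 to 2.24 per 1000 in WT and 1.23 to 1.93 per 1000 in HT, with 0 of 5 HT mice above the WT mean.

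Over the 7 mitochondrial subunits, 0 passed an unadjusted p of 0.05 in either direction, against 4.71% of all genes tested that were higher and 4.52% that were lower in HT at that level. The count of 6 higher genes fell to 5 under quantile normalisation and to 4 without HT2 and HT5. None of the 7 had groups without overlap, which 1.62% of all genes tested had. The 95% confidence intervals of the log2 fold change stayed within -0.4 and 0.4 for 3 of the 7 and ran from -0.42 to 1.1 over all of them, so that differences of the size seen could not be resolved with 5 mice per genotype. The median within-group SD of the log2 value was 0.21 for these 7 genes, 0.069 for the 38 nuclear genes and 0.14 for all genes tested. Without HT2 and HT5 the median log2 fold change of the 7 was 0.041, whereas without HT3 mt-Nd1, mt-Nd2 and mt-Nd5 had limma unadjusted p of 0.012, 0.020 and 0.025. These 3 had adjusted p of 0.40, 0.40 and 0.41 in that fit.

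The summed normalised counts of the subunits showed the same contrast between genomes. The 38 nuclear genes summed to 65489, 66283, 64676, 63429 and 66520 in WT mice 1 to 5 and to 67196, 64136, 66933, 64730 and 66356 in HT mice 1 to 5. All 10 mice thus lay within a narrow band, with HT at 101% of WT on average. The 7 mitochondrial genes summed to 619884, 669434, 637852, 748470 and 742526 in WT and to 713237, 965566, 595332, 796130 and 788436 in HT, where the mean was 113% of that in WT, or 106% without HT2 and 103% without HT2 and HT5. HT2 had the highest mitochondrial sum of the 10 mice and the second lowest nuclear sum, being the lowest mouse for 10 of the 38 nuclear genes and the highest for 7. The ratio of the mitochondrial to the nuclear sum was 10.5 ± 0.97 in WT and 11.7 ± 2.27 in HT (SD, n = 5 each), with a range of 9.47 to 11.8 in WT inside the range of 8.89 to 15.1 in HT. These sums describe each mouse and were not tested. In bulk tissue, fewer cells of a kind and less RNA per cell cannot be told apart, so neither sum counts mitochondria.

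**Figure D2:**
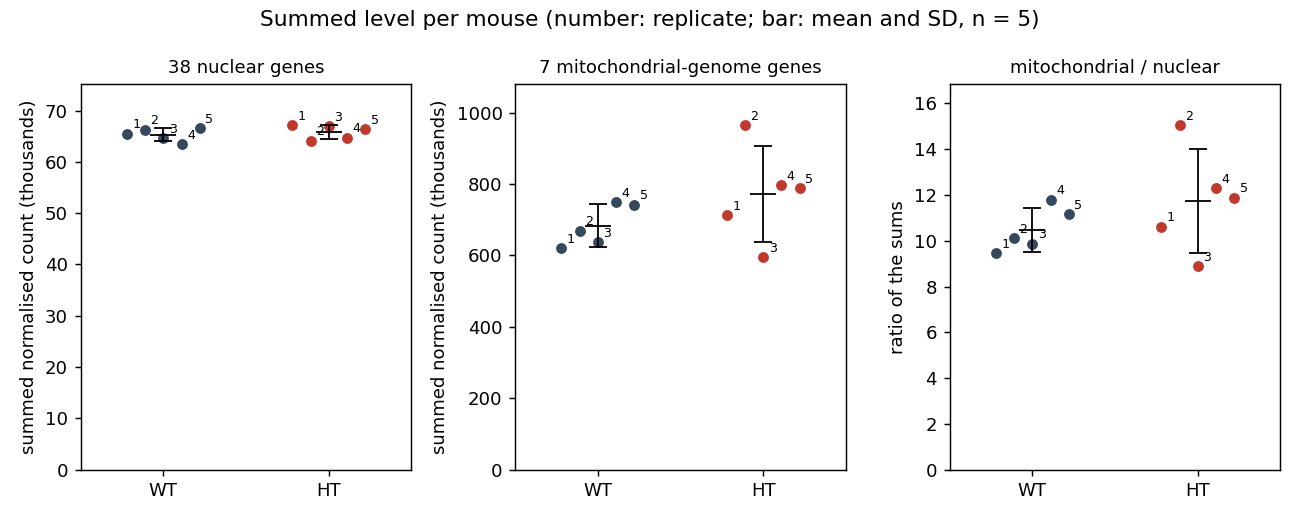
Summed normalised counts of the 38 nuclear genes, of the 7 mitochondrial-genome genes, and the ratio of the sums, 1 point per mouse with its replicate number, bars showing the mean and SD (n = 5). The nuclear sums lie between 63429 and 67196 in all mice, while the HT mitochondrial sums spread from 595332 to 965566.

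The rest of the mitochondrial genome was measured beside complex I. All genes of that genome took 5.41% to 6.30% of the values in WT and 5.15% to 8.43% in HT, with HT2 highest and HT3 lowest. Of the 6 other protein genes, 5 had higher means in HT (median log2 fold change 0.14), and the rRNAs mt-Rnr1 and mt-Rnr2 had 0.076 and 0.16. In HT, mt-Cytb of complex III had 0.14, mt-Co1, mt-Co2 and mt-Co3 of complex IV had 0.15, -0.044 and 0.28, and mt-Atp8 of the ATP synthase had 0.11. The partner gene in the ATP synthase, mt-Atp6, was the only one with an unadjusted p under 0.05 (log2 fold change 0.47, SE 0.15, limma unadjusted p = 0.0078, adjusted p = 0.47). At that unadjusted level 4.71% of all genes tested were higher in HT. With its near-identical copy on chromosome 1 added, mt-Atp6 had 0.15 (limma unadjusted p = 0.23).

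Where a gene has a near-identical copy, the deposited values split between both, and the split differed from mouse to mouse. Of the summed value of mt-Nd3 and Gm28438, mt-Nd3 took 4.01% to 14.7%, with both extremes set by WT3 and HT1. Of that of mt-Nd4l and Gm10222, mt-Nd4l took 46.5% in WT3 and 62.8% in HT3 but 100% in HT2 and WT4, where Gm10222 was listed at 0. Over the 10 mice mt-Nd3 varied 4.85-fold from lowest to highest and the sum of the pair 1.94-fold, and mt-Nd4l varied 3.34-fold and its sum 1.91-fold.

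Adding each copy to its gene narrowed the spread but left the groups overlapping. The mt-Nd3 pair summed to 12200, 15049, 13092, 17643 and 19717 in WT mice 1 to 5 and to 17185, 23514, 12097, 20542 and 17929 in HT mice. The mt-Nd4l pair summed to 22389, 26309, 23609, 27598 and 26475 in WT and to 27064, 36627, 19156, 30584 and 29506 in HT. With the copies added, HT2 was the highest and HT3 the lowest mouse for both, as for mt-Nd2, mt-Nd4 and mt-Nd5. The log2 fold changes were then 0.22 for mt-Nd3 (SE 0.16, limma adjusted p = 0.65) and 0.15 for mt-Nd4l (SE 0.13, limma adjusted p = 0.71), and the median over the 7 genes was 0.15. The copies of mt-Co1, mt-Co2, mt-Co3 and mt-Atp6 lie beside these on chromosome 1. Summed with their copies, the 4 genes had log2 fold changes of 0.14, 0.14, 0.13 and 0.15, and mt-Atp6 alone took 6.04% to 10.8% of its pair. Adding copies was chosen after the values had been seen, and which locus the reads came from was not tested.

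**Figure D3:**
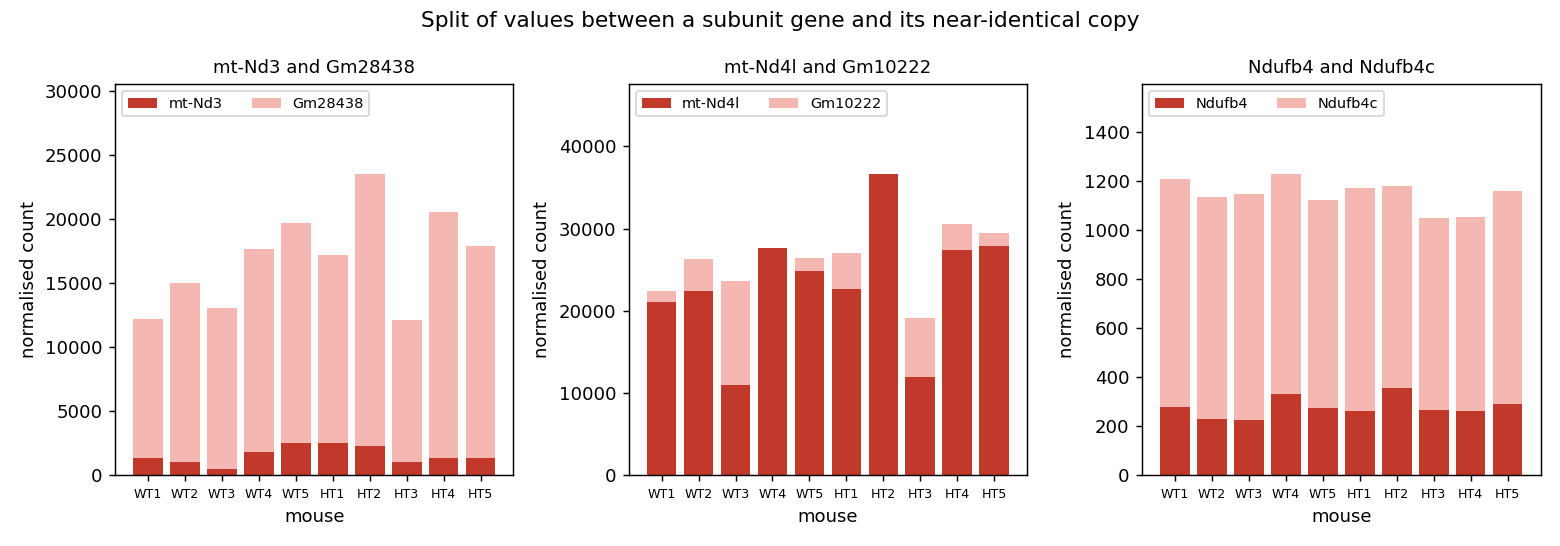
Normalised count per mouse (y axis) of mt-Nd3, mt-Nd4l and Ndufb4 (dark part of each bar) and of their near-identical copies Gm28438, Gm10222 and Ndufb4c (pale part). The dark part of mt-Nd4l is 46.5% of the bar in WT3 and 100% in HT2 and WT4. From lowest to highest mouse, bar heights vary 1.94-, 1.91- and 1.17-fold for mt-Nd3, mt-Nd4l and Ndufb4. The dark parts vary 4.85-, 3.34- and 1.56-fold.

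Of the 38 nuclear genes, 24 were higher and 14 lower in HT, and 0 passed an unadjusted p of 0.05 in either direction, beside the 4.71% and 4.52% of all genes tested. None had groups without overlap. The fold changes ran from -0.082 to 0.11, and the 95% confidence interval stayed within -0.25 and 0.25 for 36 of the 38, so that for these a change of more than 18.9% up or 15.9% down lay outside the interval. The 2 wider ones were Ndufb4 and Ndufa4l2. By part of the enzyme, 7 of 8 N module genes, 5 of 8 Q module genes, 4 of 9 genes of the proximal and 6 of 10 genes of the distal membrane arm were higher in HT, with medians of 0.034, 0.014, -0.0011 and 0.0063. The acyl carrier protein Ndufab1, which sits in both arms, had 0.034. The count of 24 higher genes moved with the scaling, from 20 after a correction for GC content and length to 32 after rescaling to totals outside the mitochondrial genome, so a direction was not called for the nuclear genes as a group.

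The nuclear core subunits carry the flavin and the iron-sulphur clusters. Ndufv1, which binds NADH and the flavin, had means of 2876 ± 118 in WT and 2944 ± 162 in HT (SD, n = 5 each), a log2 fold change of 0.033. Its neighbour Ndufv2 had 2352 ± 175 in WT and 2451 ± 75.2 in HT, a log2 fold change of 0.062. Ndufs1, the large iron-sulphur subunit of the N module, stood at 3995 ± 114 in WT and 3987 ± 233 in HT, a difference of -0.0047 on the log2 scale, whose sign changed with the scaling.

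In the Q module, Ndufs7 lines the ubiquinone pocket and Ndufs3 and Ndufs8 join it to the rest of the arm. Ndufs7 had 959 ± 38.9 in WT and 979 ± 33.9 in HT (SD, n = 5 each), and Ndufs3 had 1988 ± 39.9 and 2020 ± 56.1, with log2 fold changes of 0.030 and 0.023. Ndufs8 had the smallest p of the nuclear genes that were lower in HT. Its values were 1258, 1322, 1248, 1183 and 1268 in WT mice 1 to 5 and 1196, 1096, 1200, 1211 and 1227 in HT mice 1 to 5. WT4 lay below 4 of the 5 HT mice, and HT2 lay apart at the bottom. The log2 fold change was -0.082 (SE 0.049, limma unadjusted p = 0.12, adjusted p = 0.60).

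Ndufs4 is an accessory subunit of the N module whose loss in mice gives a Leigh-like encephalopathy. WT mice 1 to 5 had 1289, 1388, 1367, 1393 and 1515 normalised counts of Ndufs4, and HT mice 1 to 5 had 1333, 1423, 1602, 1517 and 1633. The 3 highest HT mice lay above all WT mice, whereas HT1 was second lowest of the 10. The log2 fold change of 0.11 (SE 0.063, limma unadjusted p = 0.11, adjusted p = 0.59) had the largest size among the 38, and its unadjusted p was 0.026 without HT1 and 0.0496 without WT5.

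Ndufa3, a small accessory subunit of the membrane arm, had the smallest p of the nuclear genes. WT mice 1 to 5 stood at 1059, 1083, 1005, 1053 and 1035 and HT mice at 1094, 1154, 1091, 1068 and 1143, so that HT4 alone lay within the WT range. The log2 fold change was 0.084 (SE 0.046, limma unadjusted p = 0.086, adjusted p = 0.57). The other nuclear genes of smallest p that were higher in HT were the accessory subunits Ndufv3 of the N module (0.063), Ndufa7 of the Q module (0.067) and Ndufb9 of the distal membrane arm (0.059). Those that were lower were Ndufb3 (-0.060) and Ndufb2 (-0.034) of the distal arm, Ndufs5 (-0.031), which faces the intermembrane space, and Ndufa4 (-0.028). Their limma adjusted p-values were all above the threshold, the smallest over the 38 genes being 0.57.

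**Figure D4:**
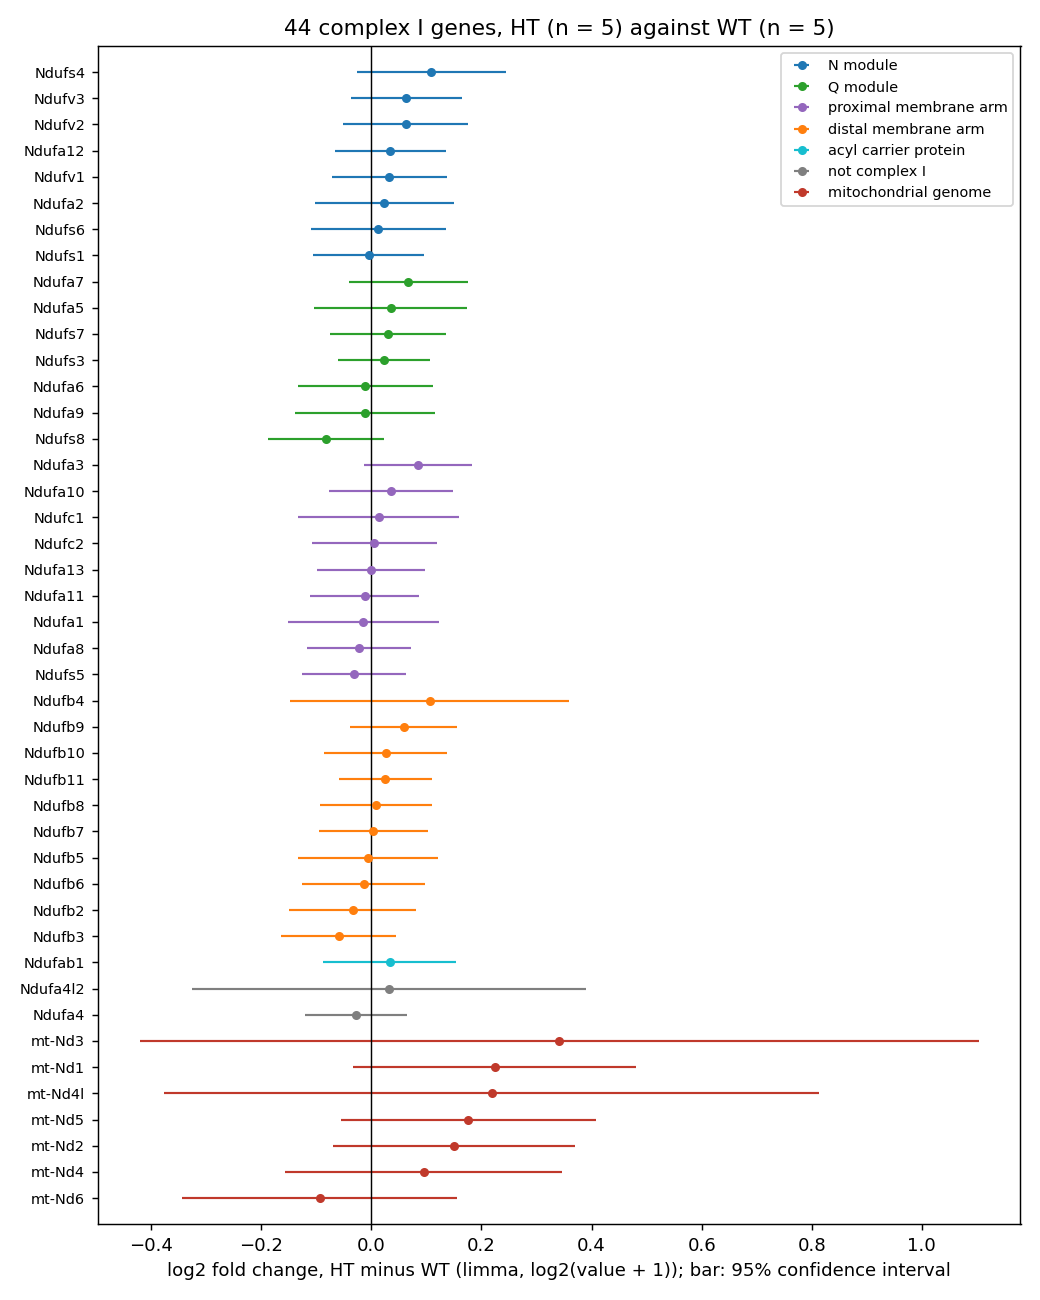
Log2 fold change (HT minus WT, x axis) of 44 of the 45 genes with 95% confidence intervals from limma, ordered by part of the enzyme. All 44 intervals drawn cross 0, and those of the mitochondrial-genome subunits reach from -0.42 to 1.1 while those of the nuclear genes drawn, other than Ndufb4 and Ndufa4l2, stay within -0.25 and 0.25.

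Ndufb4, an accessory subunit of the distal arm, was the nuclear counterpart of the split described above. Its processed pseudogene Ndufb4c, on chromosome 15, matched it over 390 bases with 0 differences. Ndufb4 had 281, 231, 228, 331 and 275 in WT mice 1 to 5 and 265, 355, 268, 264 and 292 in HT mice, and took 19.8% to 30.1% of the pair. Ndufb4c had 849 to 929 in WT and 785 to 910 in HT. The log2 fold change was 0.11 for Ndufb4 (SE 0.12, limma unadjusted p = 0.38) and -0.11 for Ndufb4c (SE 0.056, limma unadjusted p = 0.073), and for the pair summed it was -0.057 (SE 0.053, limma unadjusted p = 0.30). Ndufs5, Ndufs3 and Ndufa12 shared 26.5%, 22.8% and 20.2% of their stretches with other genes, mostly processed pseudogenes, and 7 of the 38 shared none.

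Levels between genes were compared per kilobase, using the median length of the protein-coding transcripts of a gene and the mean over the 10 mice. The mitochondrial subunits mt-Nd1, mt-Nd4, mt-Nd2, mt-Nd5 and mt-Nd4l came first, at 207525, 155913, 114878, 92518 and 78588 normalised counts per kb. Each of these exceeded every nuclear gene. The median of the 7 was 46.1 times that of the 38 nuclear genes (92518 against 2005), or 58.6 times with the longest transcript as the length. mt-Nd3 and mt-Nd6, at 4589 and 2511, lay among the nuclear genes, and for mt-Nd3 most of the pair's value stood under its copy. Since mt-Nd4l overlaps mt-Nd4 at its end on the same strand, reads there may be assigned to either.

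Among the nuclear genes, Ndufa4 was highest at 9606 per kb and Ndufa4l2 lowest at 97.5, so both ends of the range were genes that are not complex I subunits. Between them lay the 36 subunits at 287 to 6130 per kb, with Ndufs1 and Ndufb8 (5341) at the top and Ndufb2 (468) and Ndufb4 at the bottom. The place of Ndufs1 depended on the length used, since its median annotated transcript had 651 bases and its longest 2661, with which it stood at 1500 per kb and the highest of the 36 at 3857. Of the 44 pairs of neighbours in the order of all 45 genes, 27 differed by less than the SD over the mice, among them mt-Nd5 and mt-Nd4l, whereas mt-Nd1, mt-Nd4, mt-Nd2 and mt-Nd5 were set apart by more, as were mt-Nd4l and Ndufa4. Ndufa4l2, known as a target of hypoxia signalling, had 106, 77.2, 71.1, 84.6 and 112 normalised counts in WT mice 1 to 5 and 113, 101, 69.0, 88.4 and 88.8 in HT mice, which overlapped fully (log2 fold change 0.032, SE 0.17).

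**Figure D5:**
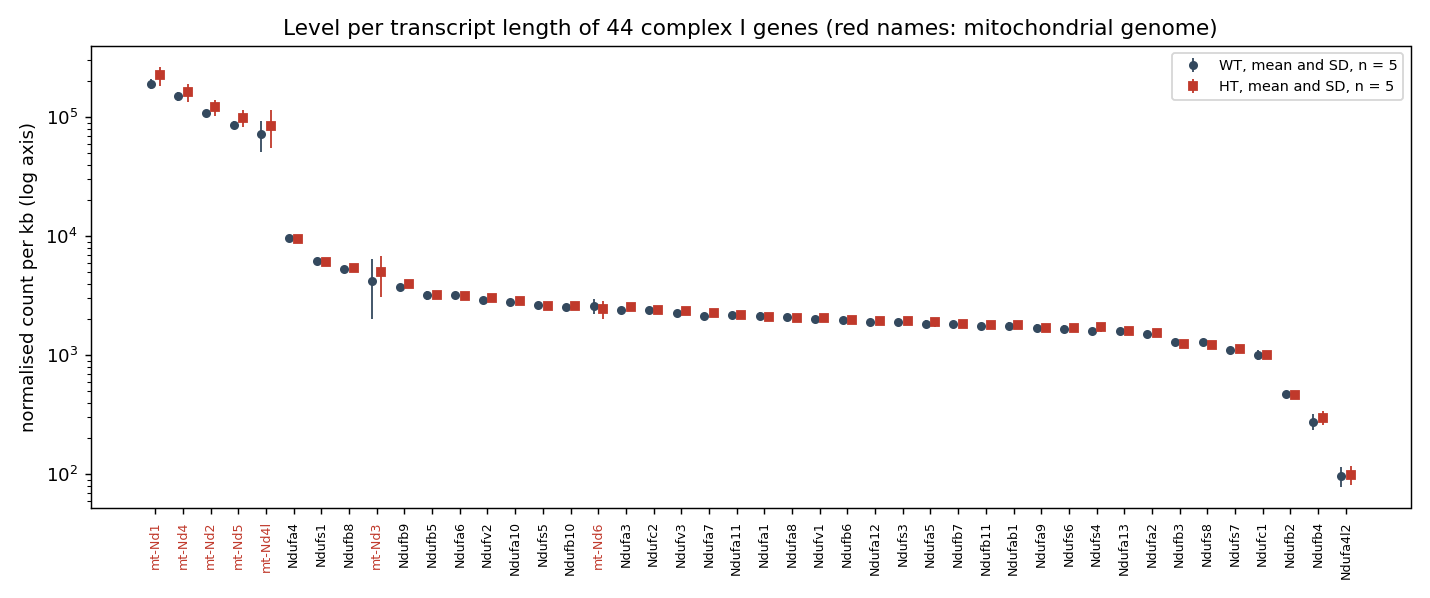
Normalised count per kb of transcript (y axis, log scale) of 44 of the 45 genes, ordered by level, in WT and HT (mean and SD, n = 5), with mitochondrial-genome genes named in red. The 5 leading mitochondrial genes lie at 78588 per kb or above, and the highest nuclear gene, Ndufa4, lies at 9606 per kb.

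Complex I assembly factors, which build the enzyme and are not part of it, were tested for 17 of 18 listed genes. Of these 7 were higher and 10 lower in HT (median log2 fold change -0.033), and 1 passed an unadjusted p of 0.05, beside the 4.52% of all genes tested that were lower at that level. It was Acad9, a factor that helps to build the membrane arm, at -0.16 (SE 0.073, limma unadjusted p = 0.043, adjusted p = 0.53). The nuclear subunits of the other complexes had small median differences, which were not tested against that of complex I. Complex II had 1 of 4 higher and a median of -0.033, complex III 1 of 9 and -0.023, complex IV 6 of 10 and 0.0065, and complex V 9 of 16 and 0.0064. Among the nuclear genes of complexes II to V, 2 passed the unadjusted threshold, both lower in HT, beside the same 4.52% of all genes. They were Sdhd, a membrane anchor of complex II (-0.094, SE 0.041, limma adjusted p = 0.52), and Cox7b, a small subunit of complex IV (-0.10, SE 0.047, limma adjusted p = 0.54).

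The factors that transcribe, copy and maintain mitochondrial DNA, among them the packaging factor Tfam and the polymerase Polrmt, had 6 of 15 genes higher in HT and a median of -0.062, with 0 past an unadjusted p of 0.05. Of the factors that process mitochondrial RNA, 7 of 17 were higher, and only Supv3l1, a helicase of the mitochondrial RNA degradosome, passed the unadjusted threshold, beside the 4.71% of all genes that were higher at that level. Its groups did not overlap, as in 1.62% of all genes (log2 fold change 0.16, SE 0.064, limma unadjusted p = 0.025, adjusted p = 0.51). Regulators of respiratory chain genes such as Ppargc1a, Nrf1 and Gabpa had 3 of 9 higher and a median of -0.017, with 0 past the unadjusted threshold.

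Markers of glia were also higher in HT on average, though 0 passed the adjusted threshold. All 10 astrocyte markers, all 10 microglial markers and all 10 markers of the oligodendrocyte lineage were higher in HT, as were 48.8% of all genes tested. The unadjusted p was under 0.05 for 7 astrocyte, 3 microglial and 1 oligodendrocyte marker, beside 4.71% of all genes that were higher at that level. The astrocyte markers summed to 160310 to 203761 in HT and 146002 to 172439 in WT. The 10 microglial markers summed to 11011 to 15378 in HT and 10722 to 12337 in WT. The 10 markers of the oligodendrocyte lineage summed to 65801 to 89765 in HT and 38667 to 92337 in WT. HT2, the mouse of highest mitochondrial sum, was also the highest of the 10 for the astrocyte (203761), microglial (15378) and vascular (19405) sums, and HT5 was the next highest for the astrocyte (194459) and microglial (14901) sums. Without HT2 and HT5 the HT mean of the astrocyte sum went from 114% to 106% of WT and that of the microglial sum from 113% to 101%, whereas that of the oligodendrocyte sum went from 124% to 130%. HT5 also had 13936 normalised counts of the astrocyte gene Gfap, against 3572 to 5007 in the other HT mice. The excitatory neuron markers summed to 137522 in HT2 and to 127804 to 158360 over all mice. The part of the cell makeup in the mitochondrial values was not tested. Choroid plexus and blood markers were present at sums of 4975 to 6094 and 6431 to 11320, with HT means at 102% and 84% of WT. The HT mean of the striatal sum was 126% of WT. In all of these sums the groups overlapped. Ttr, Folr1 and Otx2 were not analysed here.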

How the data were processed

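Prefrontal cortex RNA of 5 HT and 5 WT male mice at postnatal day 10 was measured, with groups and replicate numbers taken from the sample titles. The authors made stranded poly-A libraries, estimated transcript abundance with Salmon 1.1.0 on GRCm38 with GC bias correction, summed it to genes with tximport and divided it by DESeq2 1.30.1 size factors. What the authors deposited is thus a normalised signal for each gene (the normalised count of the text) rather than reads, so library depth is unknown and no count test, counting interval or detection floor was used, and the confidence intervals of the text are those of limma over mice. Size factors make every value relative to the other genes, and reads of near-identical genes are shared by a model.

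Symbols, positions and lengths came from the GENCODE M21 annotation (18205 of 18216 genes found). Values were tested as log2(value + 1) for 16781 genes (mean over the mice of 10 or more), with limma 3.58.1 in R 4.3.3 (mean-variance trend, genotype as the only factor, two-sided) and Benjamini-Hochberg adjustment at 0.05. All 45 members passed the filter. When the HT against WT fit was tested on simulated data, 86.5% of 200 genes moved by 1 log2 unit, among 16781, were recovered. The complex I genes differed by less (log2 fold changes of -0.094 to 0.34), and recovery of changes that small was not simulated. Transcripts were compared in stretches of 31 bases and aligned with Biopython 1.88, and sequences are those of the GENCODE transcripts. The members, the pathway and marker lists and the tests were chosen with earlier results of these data known, and adding the values of near-identical copies, alone or with HT2 left out, and leaving out the 3 mice of low striatal markers were chosen after seeing the data. Named were all mitochondrial members, nuclear core subunits, in each direction the 5 nuclear members of smallest p, the highest and lowest level per length, Ndufa4, Ndufa4l2 and copies, list members with an unadjusted p under 0.05 and the other mitochondrial-genome genes. Ndufb8, Ndufa12 and Ndufab1 were named beside them after their values were seen. Alternatives were pseudocounts of 0.5 and 10, no filter or a mean of 50, other scalings, no trend, sample weights, a replicate block, a GC and length correction and leaving out mice. Over all genes tested, same-numbered HT and WT mice did not deviate together (correlations -0.041 to 0.101), so the numbers were not taken as pairs. Single genes could differ from this. With the replicate block the SE of mt-Nd4l was 0.092 against 0.28 without it, and that of mt-Atp6 0.10 against 0.15. A further gene that the rule names is not reported here, though it stays in the counts and sums. No promoter or protein sequence was used.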

Additional observations from a re-analysis of the deposited data

Results flagged for a closer look

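In 86 groups of 5 mice examined (the named genes and sums, HT and WT apart), 5 single mice lay far from the other 4 of their genotype by Dixon's criterion of 0.71. Chance alone flags about 1 in 20 such groups, or 4.3 of 86. mt-Nd6 was 1667 in WT5 and 1196 to 1304 in the other WT mice. Ndufs8 was 1096 in HT2 and 1196 to 1227 in the other HT mice, and Ndufv3 was 1420 in HT2 and 1525 to 1539 in the others. mt-Co2 was 116724 in HT4 and 66180 to 76769 in the other HT mice. Supv3l1 was 492 in WT1 and 552 to 556 in the other WT mice.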

How the results depend on the processing

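No complex I gene passed the adjusted threshold under any alternative run, and the median log2 fold change kept its sign throughout, between 0.0042 and 0.030 for the nuclear and between 0.041 and 0.25 for the mitochondrial genes. The low end of the latter came without HT2 and HT5, which also moved the mitochondrial sum from 113% to 103% and the ratio from 112% to 101% of WT, and quantile normalisation (0.042) and sample weights (0.11) lowered it as well. The cause was not tested. With the replicate number as a block, 1 mitochondrial gene had an unadjusted p under 0.05 (mt-Nd4l, unadjusted p = 0.039, adjusted p = 0.54, by limma), and with GC and length correction and replicate block 1 nuclear (Ndufs4) and 2 mitochondrial genes had (mt-Nd1 and mt-Nd4l), while the adjusted count stayed at 0. Leaving out single mice gave 0 to 1 nuclear and 0 to 3 mitochondrial genes at that level, a mitochondrial sum of 106% to 119% of WT and a ratio of 104% to 119%. The longest transcript as the length gave 58.6 in place of 46.1 for the ratio of median levels.

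Signs turned both for genes near 0 and, without HT2 and HT5, for mt-Co3, mt-Nd4l and mt-Atp8, which were at 0.28, 0.22 and 0.11 with all mice. Ndufs1 was 0.0017, 0.017, 0.013, 0.0015, 0.013 and 0.0038 under upper quartile, quantile, non-mitochondrial and total scaling, sample weights and GC correction (0.0038 with the block). Quantile normalisation gave -0.025 for mt-Nd4 and -0.021 for Ndufa4l2. Without HT2 and HT5 the values were -0.021 for mt-Nd4, -0.066 for mt-Nd4l, 0.037 for Ndufs1, -0.0076 for Ndufa4l2, 0.079 for mt-Co2, -0.044 for mt-Co3, -0.014 for mt-Atp8 and -0.016 for mt-Rnr1. Without the 3 mice of low striatal markers they were 0.089 for mt-Nd6, -0.043 for mt-Nd4l, -0.00017 for Ndufv1, 0.0081 for Ndufs1 and -0.00020 for Ndufs3. Adding copies gave 0.14 for mt-Co2 and, with HT2 also left out, 0.056, with 0.032 for Ndufs1, -0.0059 for Ndufa4l2 and -0.029 for mt-Rnr1. Without single mice values ran from 0.0087 to 0.18 for mt-Nd4, from 0.13 to 0.60 for mt-Co3 and from 0.020 to 0.24 for mt-Atp8, and further from -0.022 to 0.032 for Ndufs1, -0.047 to 0.13 for Ndufa4l2, -0.0051 to 0.46 for mt-Nd4l, -0.25 to 0.083 for mt-Co2 and -0.029 to 0.14 for mt-Rnr1. Depth is unknown and set no limit that could be stated.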
